A study of Mus musculus with 6 samples.

Results

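Annexins are proteins that bind acidic phospholipids of cell membranes when calcium rises, and they were followed here as a family of 10 genes, Anxa1 to Anxa8, Anxa11 and Anxa13, out of 19938 genes measured in embryonic mouse kidneys. The family was put together around Anxa13, whose low signal in the kidneys labelled Foxd1 null was already known, so its difference between genotypes is given as a description and was not tested. The row of a gene was chosen by its deposited signal: this picked the array row with the highest mean over all arrays where a gene had several rows. Among the members only Anxa6 had more than 1 row, with 2. Anxa9 and Anxa10 are the other annexins on the array and are given beside the 10.

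The arrays compared kidneys of mouse embryos at E14.5 labelled Foxd1 null with those of wild type littermates, from 3 litters of Foxd1 heterozygous parents. Foxd1 encodes a forkhead transcription factor of the stromal progenitors of the kidney, and both groups were untreated as far as the labels say. Each of the 3 null and 3 wild type arrays held RNA of 2 kidney pairs from different litters, pooled, so that pools share litters, and embryos were not sexed. Whole kidneys were used, so fewer cells of a type and less RNA per cell cannot be told apart.

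An annexin core folds around calcium sites that face the membrane, while the amino-terminal tail differs between members and sets the binding partners. Anxa2 joins S100a10 in a complex that links membranes to actin and, on cell surfaces, brings plasminogen and its activator together. Anxa1 is induced by glucocorticoids and signals through formyl peptide receptors, Anxa5 covers exposed phosphatidylserine, and ANXA13 was described in dog and human cells as a protein of intestinal and kidney epithelium that takes part in traffic to the apical membrane.

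The Foxd1 row read 10.05, 9.77 and 9.71 log2 units in null pools 1, 2 and 3, beside 9.40, 9.55 and 9.69 in wild type pools 1 to 3. The Foxd1 signal was thus higher in each pool labelled null than in any wild type pool, by 0.02 log2 units between the nearest pools. The difference was 0.30 (SE 0.11, limma adjusted p = 0.246), which did not pass by the test given below. The label names the allele and not the RNA level. No source used here states which part of the gene the allele lacks or where the probes of this row sit. The Foxd1 signal therefore cannot decide whether the labels are right. Every direction below is therefore between pools as labelled. Null pool 3 stood apart in liver and adrenal signal. The summed linear signal of 5 liver markers was 5460 there against at most 1000 in any wild type pool. That of 4 adrenal cortex markers was 2190 against at most 436. Neuron and glia markers were highest in null pool 2, with a sum of 3770 over 6 genes against at most 1030 in wild type. For 6 skeletal muscle markers the sums were 2530, 2180 and 1490 in null pools 1, 2 and 3, and 904 to 1530 in wild type. The kidney progenitor genes Eya1 and Six2 read 10.61 to 10.87 and 8.70 to 8.89 in the null pools and 10.47 to 10.53 and 9.02 to 9.28 in the wild type pools. Of 5 nephron progenitor markers 1 fell, 0 rose and 4 did not pass, by the test given below, where 0.767% of all genes fell. The 1 that fell was Cited1, named after its values were seen, with a difference of -0.53. Eya1 was the 1 marker of the 5 with a higher mean in null. No gene on this array has a level of 0.

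Promoter sequences are shown for Anxa1, the member with the most stable rise, for Anxa2, whose complex with S100a10 is described below, and for Anxa8, the other member whose null pools all lay below wild type. The 250 bases before the annotated start of each are from RefSeq (GRCm38.p6) and read 5′ to 3′ on the strand of the gene, where 9 of the 12 annexins had an entry. Capitals mark matches, on either strand, to a forkhead motif (GTAAACA), an AP-1 motif (TGANTCA), a GC box (GGGCGG) or a TATA box (TATAAA).
Anxa1, chr19:20390672-20390921, minus strand: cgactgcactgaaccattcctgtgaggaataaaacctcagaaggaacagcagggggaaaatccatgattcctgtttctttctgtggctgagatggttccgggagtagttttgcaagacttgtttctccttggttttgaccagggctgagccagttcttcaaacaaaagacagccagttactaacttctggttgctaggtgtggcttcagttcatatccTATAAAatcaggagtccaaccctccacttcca
Anxa2, chr9:69453433-69453682, plus strand: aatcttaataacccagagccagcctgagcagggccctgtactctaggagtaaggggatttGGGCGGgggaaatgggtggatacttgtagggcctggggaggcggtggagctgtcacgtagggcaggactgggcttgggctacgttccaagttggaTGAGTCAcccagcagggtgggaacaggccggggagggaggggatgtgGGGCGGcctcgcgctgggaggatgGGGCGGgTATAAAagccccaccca
Anxa8, chr14:34085729-34085978, plus strand: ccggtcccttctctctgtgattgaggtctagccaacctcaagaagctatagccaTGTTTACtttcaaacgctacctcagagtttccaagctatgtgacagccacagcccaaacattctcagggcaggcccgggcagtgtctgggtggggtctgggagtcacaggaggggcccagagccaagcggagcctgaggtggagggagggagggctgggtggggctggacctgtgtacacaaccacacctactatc
The Anxa1 window held 1 match, a TATA box that begins 32 bases before the start, where 12.4% of all 32851 windows of this length hold a TATA box. The Anxa2 window held 3 GC boxes, an AP-1 motif 95 bases before the start and a TATA box 17 bases before it. GC boxes lie in 32.7% of all windows and AP-1 motifs in 6.75%. The Anxa8 window held 1 match to the forkhead motif, 196 bases before the start, a motif found in 3.17% of all windows. These matches are letters in a window and carry no information on what binds there.

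**Figure D1:**
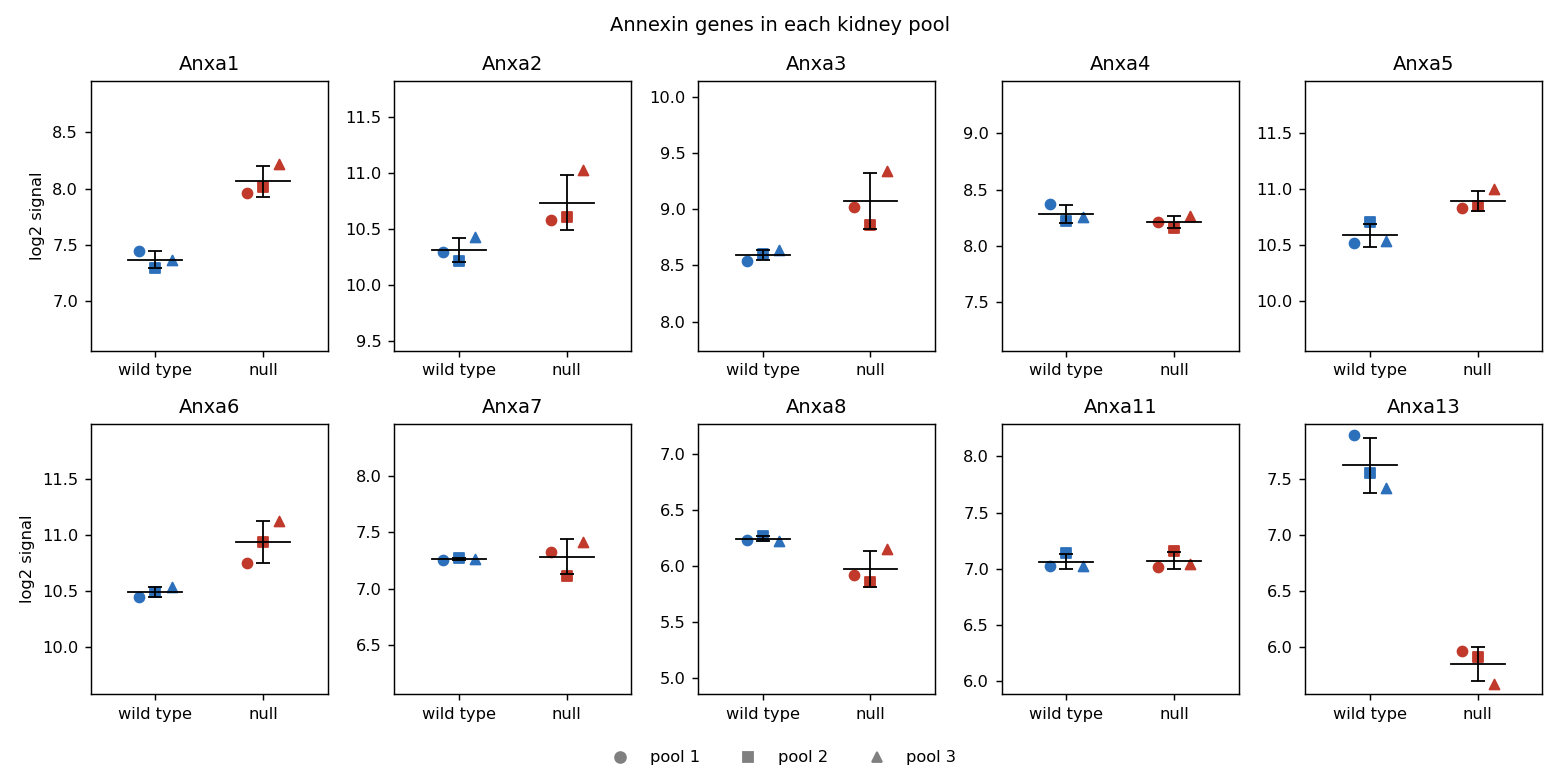
Log2 signal of the 10 annexin genes in each pool, with the mean (bar) and SD (error bar) of the 3 pools of a genotype; each panel spans the same number of log2 units. The null pools lie above all wild type pools for Anxa1, Anxa2, Anxa3, Anxa5 and Anxa6, below them for Anxa8 and Anxa13, and overlap with them for Anxa4, Anxa7 and Anxa11.

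Among the 9 annexins other than Anxa13 the null pools lay wholly above the wild type pools in 5 genes, wholly below in 1, and overlapped in 3. Anxa13, known beforehand to be low, lay wholly below and is left out of this count. Over all 19938 genes, 19.5% had groups without overlap, 11.5% with the null pools above and 8.04% with them below. Of the 9 members other than Anxa13, 2 rose in the kidneys labelled null (Anxa1 and Anxa6), 0 fell and 7 did not pass, where 2.40% of all genes passed, 1.64% upward and 0.767% downward. These calls are from limma's moderated test with Benjamini-Hochberg adjustment over all genes at 0.05, as are all adjusted p-values below, and 6 of the 9 had an unadjusted p under 0.05 (Anxa8 among them, with 0.0131), beside 14.1% of all genes. The median log2 difference, null minus wild type, was 0.30 over these 9 genes and 0.01 over all genes. The count of 2 was 1 when any pool but null pool 1 was left out. In those fits the calls over all genes were 194 to 347, beside 479 in the reported fit. The shares above are over genes of every level. Among the 9969 genes with a mean level above the median, 552 passed, 387 of them upward, where 3 of the 7 annexins kept there passed.

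Anxa1 showed the firmest rise among the members that were tested. Its log2 signal was 7.96, 8.01 and 8.22 in null pools 1, 2 and 3, against 7.44, 7.30 and 7.37 in wild type pools 1 to 3. The lowest null pool stood 0.52 log2 units above the highest wild type pool, the widest gap among the 5 members that were higher. The means were 8.07 ± 0.14 and 7.37 ± 0.07 (SD, n = 3 pools each), a difference of 0.70 (SE 0.09), or 1.62-fold, with a limma adjusted p of 0.00357. It passed in all 16 alternative analyses, with adjusted p from 0.000646 to 0.0486, and in each fit that left out 1 pool. Without null pool 3, the pool with liver and adrenal signal, the difference was 0.62.

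Anxa6, an annexin with a longer core than its relatives that is found at the plasma membrane and endosomes, read 10.75, 10.94 and 11.12 in null pools 1, 2 and 3. In wild type pools 1, 2 and 3 it read 10.44, 10.49 and 10.53. The wild type pools lay close together and the null pools spread above them. The means were 10.94 ± 0.19 and 10.49 ± 0.05 (SD, n = 3), a difference of 0.45 (SE 0.10), or 1.36-fold, with a limma adjusted p of 0.0468. It kept the call in 7 of 16 alternatives and in 1 of the 6 that left out a pool, the one without null pool 1, where adjusted p was 0.0103, against up to 0.189 without another. A lower row of the same gene read 7.39, 7.47 and 7.33 in the null pools and 7.20, 7.28 and 7.13 in the wild type pools. The null pools of that row also lay above the wild type pools, with a difference of 0.20, less than the 0.45 of the reported row. With all rows tested neither row passed, with a limma adjusted p of 0.412 for the lower row and 0.191 for the reported row. With the mean of both rows the difference was 0.32 (adjusted p = 0.0588).

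Anxa2, Anxa3 and Anxa5 also stood higher in each null pool than in any wild type pool, but none of the 3 passed the threshold over all genes. Anxa2 read 10.58, 10.61 and 11.02 in null pools 1, 2 and 3 against 10.30, 10.21 and 10.43 in the wild type pools, a difference of 0.42 (SE 0.12, adjusted p = 0.127). Null pool 3 stood above the others, and without it the difference was 0.28, lower by over 1.5 times. Anxa3, abundant in neutrophils in humans, read 9.02, 8.86 and 9.34 in the null pools against 8.54, 8.61 and 8.63, a difference of 0.48 (SE 0.11, adjusted p = 0.0684). Its wild type values lay within a narrow band, while null pool 3 was again the highest. Anxa5 read 10.83, 10.84 and 10.998 in the null pools against 10.52, 10.71 and 10.54, a difference of 0.30 (SE 0.08, adjusted p = 0.111). The nearest null and wild type pools of Anxa5 were 0.13 log2 units apart, and those of Anxa3 were 0.23 apart. Among the 16 alternatives, Anxa3 passed in 5, and Anxa2 and Anxa5 each passed in 1.

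The 3 members whose groups overlapped were Anxa4, Anxa7 and Anxa11. Anxa4, an annexin of secretory and tubular epithelia, read 8.21, 8.16 and 8.26 in the null pools beside 8.37, 8.22 and 8.26 in wild type. Its difference was -0.07, with a 95% interval from -0.24 to 0.10 (limma adjusted p = 0.743). Anxa7, first described as synexin for its part in membrane fusion, read 7.33, 7.11 and 7.41 against 7.25, 7.28 and 7.27, a difference of 0.02 with an interval from -0.18 to 0.22. Anxa11, which tethers RNA granules to lysosomes in neurons, read 7.01, 7.16 and 7.04 against 7.02, 7.14 and 7.03, a difference of 0.01 with an interval from -0.16 to 0.18. These intervals leave room for changes smaller than those of Anxa1, and the signs for Anxa7 and Anxa11 turned in 5 alternatives each.

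Anxa8, an annexin of late endosomes, differed in the other direction from its higher relatives. It read 5.92, 5.85 and 6.15 in null pools 1, 2 and 3 and 6.23, 6.27 and 6.23 in the wild type pools. All 3 null pools were lower, null pool 3 by only 0.07 log2 units from the lowest wild type pool. The difference was -0.27 (SE 0.09, adjusted p = 0.192), and it was -0.36 without null pool 3 (adjusted p = 0.0697). Anxa9 read 6.08, 5.81 and 5.98 in the null pools and 6.05, 5.99 and 5.74 in the wild type pools, with a difference of 0.03 whose sign turned in 5 alternatives, median centring among them. Anxa10 read 5.48, 5.33 and 5.21 against 5.56, 5.59 and 5.40, a difference of -0.18 (SE 0.09, adjusted p = 0.434). The groups overlapped in both. No source used here gives a detection call for the Anxa8, Anxa9 and Anxa10 rows.

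**Figure D2:**
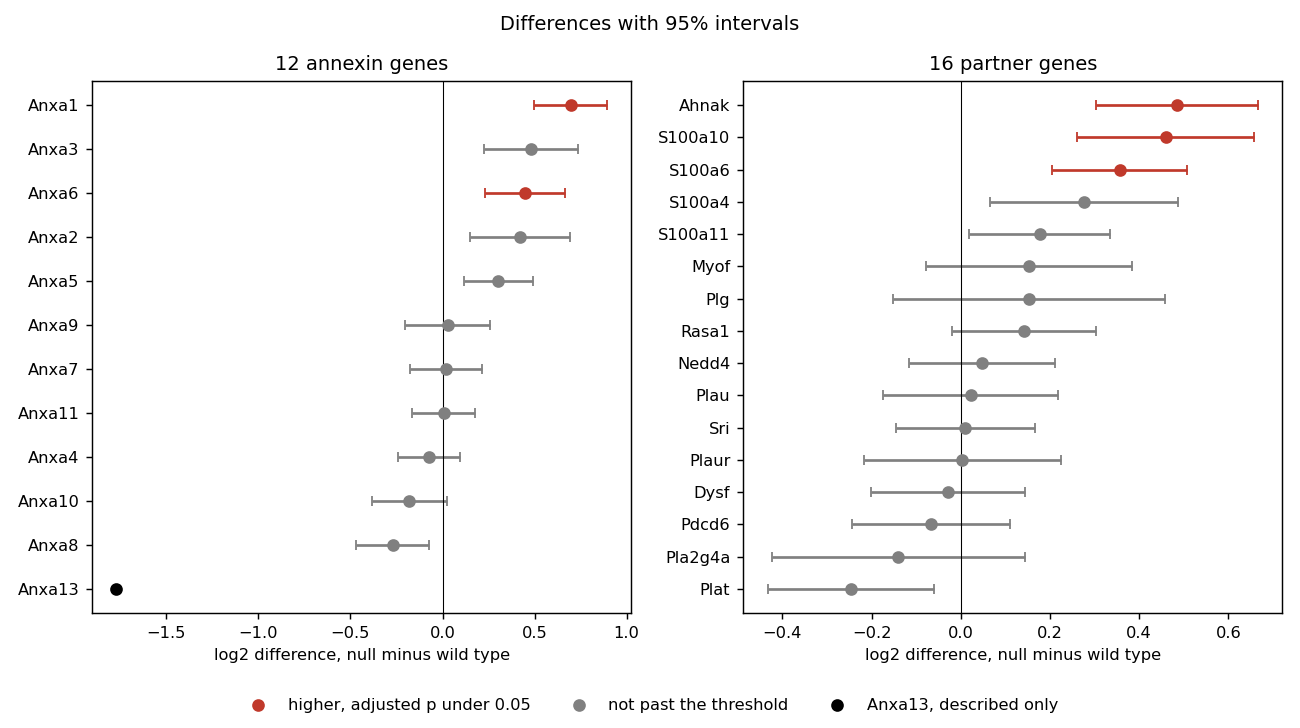
Log2 difference, null minus wild type, for 12 annexin genes (left) and 16 partner genes (right), with 95% intervals from limma, for all but Anxa13; the panels have different axes. Anxa1 and Anxa6 on the left and Ahnak, S100a10 and S100a6 on the right passed the threshold, and Anxa13 lies far to the left of the other annexins.

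Anxa13 had the largest difference among the 10 genes, and it was downward. Its signal was 5.96, 5.91 and 5.68 in null pools 1, 2 and 3, against 7.89, 7.55 and 7.42 in wild type pools 1 to 3. The lowest wild type pool stood 1.46 log2 units above the highest null pool. The means were 5.85 ± 0.15 and 7.62 ± 0.24 (SD, n = 3), a difference of -1.77 or 3.41-fold lower in the null pools. With 1 pool left out the difference lay between -1.87 and -1.63. Null pool 3 was the highest of the null pools for Anxa1, Anxa2, Anxa3, Anxa4, Anxa5, Anxa6, Anxa7 and Anxa8, and the lowest for Anxa13. Its median over all rows, 7.057, was also the highest of the 6 pools.

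Of the 12 annexins, Anxa13 is the one listed in the authors' deposited table of 488 probe sets. The authors' deposited table gives a fold of 2.58 lower in null with a p-value of 0.0013, from a test it does not name. That p-value is from the same arrays and for a gene chosen for its low signal in null, so it is no separate evidence. The group medians there, in natural log units, are 4.48 in null and 5.43 in wild type, whereas the 3.41-fold above is from means. For expression, the authors' deposited table gives Anxa13 a p-value of 0.0413 in wild type and 0.488 in null. The null signal was thus not called expressed there, and the size of the difference is no exact fold.

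The genes nearest to Anxa13 in pattern were Kynu, Car4, Cltrn, Cldn1 and Fut9, by the root-mean-square distance between mean-centred log2 values over the 6 pools. Kynu, an enzyme of tryptophan breakdown, was nearest at 0.08 log2 units, with 8.10, 7.92 and 7.77 in wild type pools 1 to 3 against 6.32, 6.15 and 6.10 in null pools 1 to 3. Car4, a membrane-anchored carbonic anhydrase, followed at 0.19, and Cltrn, the collectrin that carries amino acid transporters to the brush border, at 0.22. Cldn1, a tight junction claudin, lay at 0.24 and Fut9, a fucosyltransferase, at 0.24. In all 5 genes wild type pool 3 was the lowest wild type pool, as it was for Anxa13. These genes were picked for their likeness, so their differences are no further test.

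**Figure D3:**
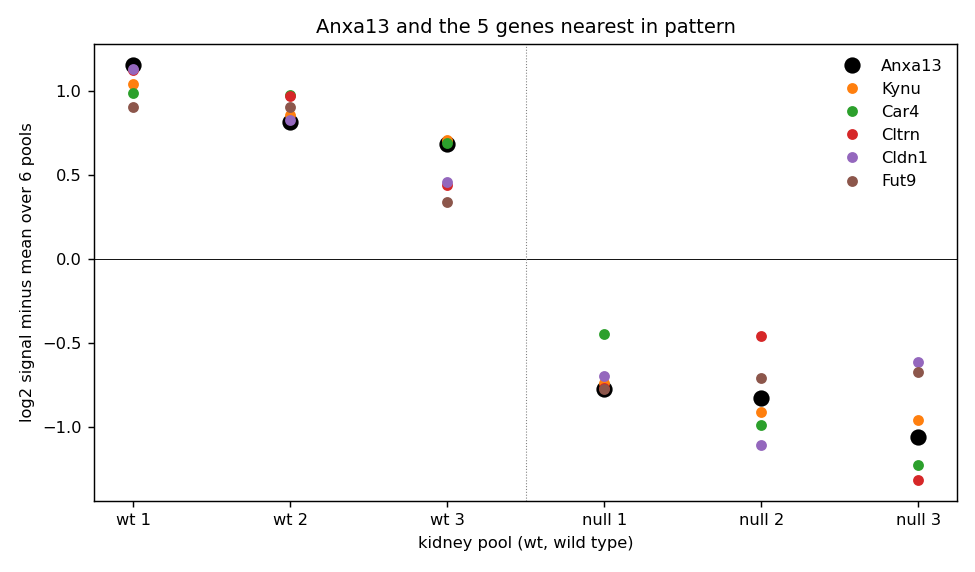
Log2 signal minus the gene's mean over the 6 pools, for Anxa13 (large black points) and the 5 genes nearest in pattern, with wild type pools to the left of the dotted line. All 6 genes lie above 0 in each wild type pool and below 0 in each null pool, and Kynu lies closest to Anxa13.

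Markers of several nephron segments moved the same way as Anxa13. Over all genes 0.767% fell and 1.64% rose in the same test, and 19.5% had groups without overlap. Of 9 measured proximal tubule markers 6 fell, 0 rose and 3 did not pass, the median difference was -0.82, and their summed linear signal was 925 to 1120 in the null pools and 1710 to 2490 in the wild type pools. The brush border peptidase Dpp4 fell by 1.88 (SE 0.21, adjusted p = 0.00213) and Pdzk1, a scaffold protein of brush border transporters, fell by 0.94 (SE 0.14, adjusted p = 0.00969). Among 6 loop and distal tubule markers there were 2 that fell, 0 that rose and 4 that did not pass, with sums of 560 to 671 in null and 903 to 980 in wild type pools. Of 6 renal vesicle markers 2 fell, 0 rose and 4 did not pass, with sums of 2640 to 2920 and 3470 to 3700. The members that fell, named after their values were seen, were the cotransporter Slc12a1 with a difference of -2.14 and Tfap2b with -0.60 in the first list, and the transcription factors Lhx1 with -1.18 and Pax8 with -0.77 in the second. Markers of intestinal epithelium, the other tissue known for Anxa13, overlapped between the groups in 4 of 4 genes, with sums of 218 to 288 in null and 223 to 251 in wild type pools. Their wild type means were low, from 4.87 for Fabp2 to 6.55 for Cdx1, where the lowest median of a pool over all rows was 6.984. Overlap at such levels carries no information on the Anxa13 difference. Of 10 markers of collecting duct and urothelium 2 rose, 0 fell and 8 did not pass. The part of these markers in the Anxa13 difference was not tested.

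A different set of markers moved with the annexins that stood higher, where 1.64% of all genes rose. All 5 fibroblast markers rose, with a summed signal of 6280 to 7330 in the null pools and 2800 to 3360 in the wild type pools. Of 8 macrophage markers 4 rose and 4 did not pass (1680 to 2080 in null, 1310 to 1390 in wild type), and of 8 endothelial markers 4 rose and 4 did not pass (4070 to 4710 in null, 3250 to 3460 in wild type). Of 5 smooth muscle markers 4 rose, with sums of 2050 to 2720 in null and 1040 to 1160 in wild type pools. The summed linear signal of the 9 annexins other than Anxa13 was 6490 to 7980 in null and 5360 to 5580 in wild type pools. Liver and adrenal markers were highest in null pool 3, as were Anxa1, Anxa2, Anxa3, Anxa5, Anxa6 and Anxa7. Without that pool the differences of these annexins were 0.62, 0.28, 0.35, 0.25, 0.36 and -0.04. Anxa4 and Anxa8 were highest there among the null pools, but not among all pools. The part of these markers in the differences of the annexins was not tested.

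**Figure D4:**
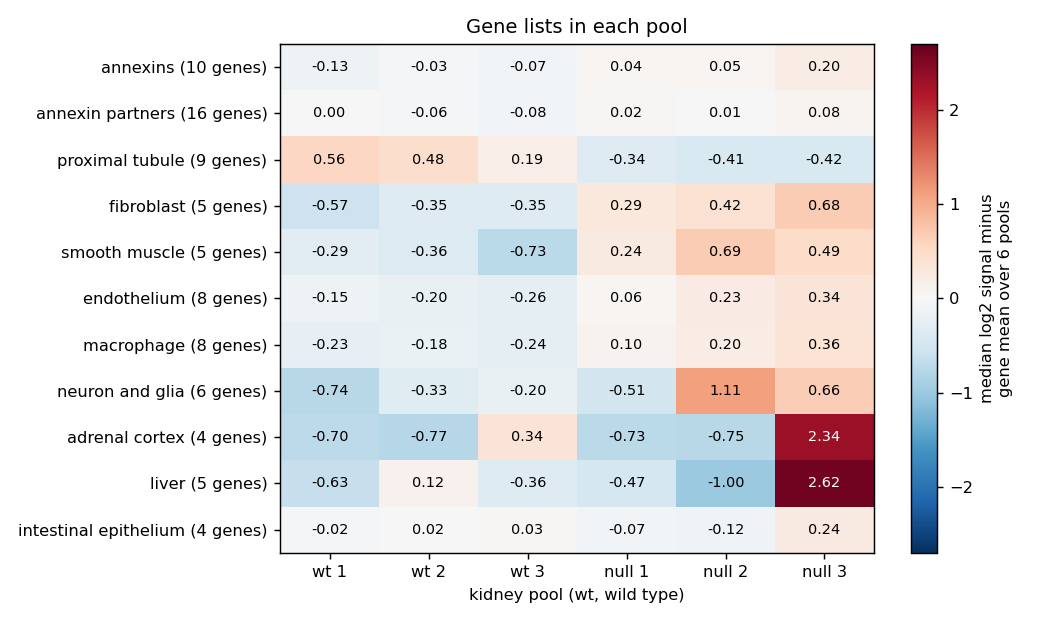
Median over the genes of each list of the log2 signal minus the gene's mean over the 6 pools, written in each cell and coloured on one scale for all lists. The annexin row is highest in null pool 3 (0.20), where the liver row (2.62) and adrenal cortex row (2.34) are highest too, and the proximal tubule row is above 0 in the wild type pools and below 0 in the null pools.

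Genes whose products bind annexins or act with them were examined as a list of 18, of which 16 were measured; the formyl peptide receptor genes Fpr1 and Fpr2 had no row of their own. Of the 16, 3 rose (S100a10, S100a6 and Ahnak), 0 fell and 13 did not pass, beside 1.64% of all genes that rose. The median difference of the 16 genes was 0.09. At an unadjusted p under 0.05 there were 6 of the 16, beside 14.1% of all genes. The null pools lay wholly above the wild type pools in 6 of the 16 genes and wholly below in 1, beside 11.5% and 8.04% of all genes.

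S100a10, the light chain that pairs with Anxa2, read 10.86, 10.92 and 11.02 in null pools 1, 2 and 3 and 10.41, 10.39 and 10.63 in the wild type pools. The difference was 0.46 (SE 0.09, adjusted p = 0.0281), beside 0.42 for Anxa2. In both genes pool 3 was the highest of its genotype. Ahnak, a very large scaffold protein recruited to the plasma membrane by the Anxa2 complex, read 8.29, 8.31 and 8.38 against 7.95, 7.85 and 7.72, a difference of 0.49 (SE 0.08, adjusted p = 0.0144). S100a6, a calcium-binding protein that binds several annexins, read 9.18, 9.14 and 9.14 against 8.77, 8.79 and 8.83, a difference of 0.36 (SE 0.07, adjusted p = 0.0267). The SD of S100a6 within a genotype was at most 0.03, so the groups were well apart.

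Each of the 3 partners lost its call in several of the fits that left out a pool. Calls over all genes were 743 without null pool 1 and 194 to 347 without any other pool, beside 479 in the reported fit. S100a10 kept its call in 2 of the 6 fits that left out a pool (without null pool 1 or wild type pool 3), Ahnak in 3 (without null pool 1, wild type pool 1 or wild type pool 3) and S100a6 in 1 (without null pool 1), with adjusted p of at most 0.137. Their differences kept their sign in each of these fits, from 0.34 for S100a6 to 0.54 for S100a10 and Ahnak.

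Other genes named here were chosen after their values were seen. S100a11, the usual partner of Anxa1, lay higher in all null pools, with a difference of 0.18 (SE 0.07, adjusted p = 0.288), as did S100a4 with 0.28 (SE 0.09, adjusted p = 0.208) and Rasa1, a GTPase-activating protein bound by Anxa6, with 0.14 (SE 0.07, adjusted p = 0.435). Plat, the tissue plasminogen activator that binds the Anxa2 complex, lay lower in all null pools. It read 8.32, 8.29 and 8.50 in the null pools and 8.70, 8.59 and 8.56 in the wild type pools, a difference of -0.25 (SE 0.08, adjusted p = 0.205). The groups overlapped for the plasminogen gene Plg, the urokinase gene Plau and its receptor gene Plaur, with differences of 0.15, 0.02 and 0.0035, whose signs turned in 1, 6 and 5 of their 15 alternatives.

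**Figure D5:**
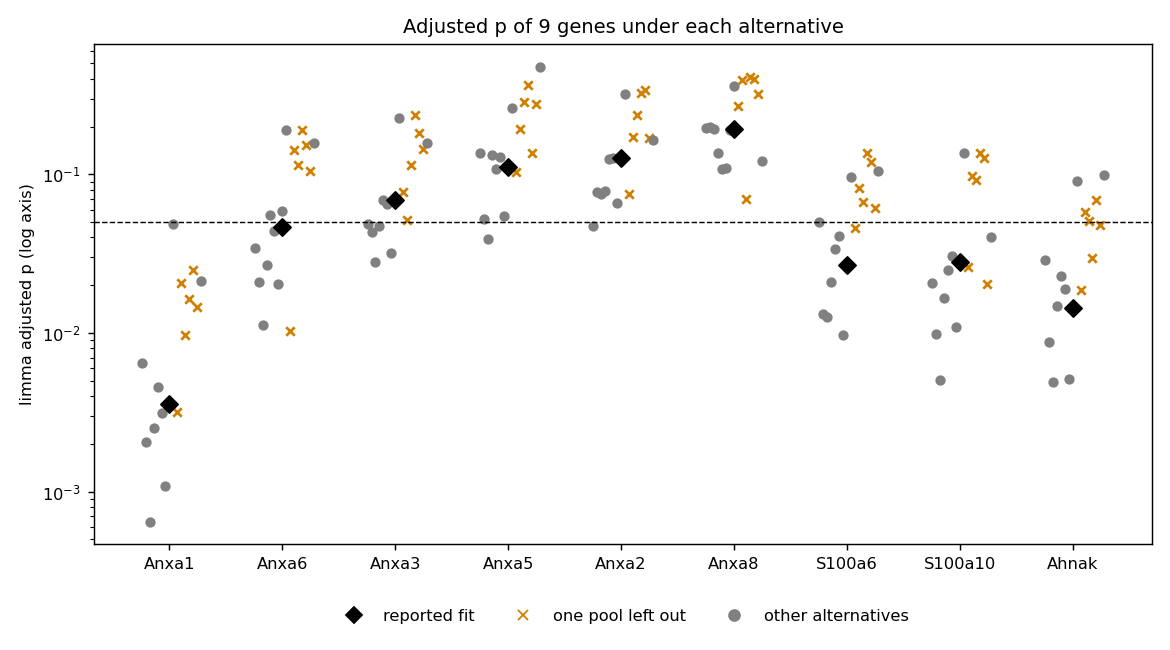
Limma adjusted p (log axis) of 6 annexins and 3 partner genes in the reported fit (diamonds), with 1 pool left out (crosses) and in the other alternatives (circles); the dashed line is the threshold of 0.05. Anxa1 lies below the line in each fit, Anxa6 and the 3 partners cross it, and Anxa8 lies above it in each fit.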

How the data were processed

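Per the labels, 50 ng of total RNA per pool was amplified to cDNA with a NuGEN kit and labelled with biotin for an Affymetrix array. The deposited values are log2 signals, 1 column per pool; the log2 scale was read from the values, whose group differences had a slope of 1.501 on the natural-log folds of the authors' deposited table over 488 probe sets (log2 gives 1.443). No source used here names the program that summarised and normalized them. Medians of the 6 columns were 7.0053, 7.0191 and 7.0574 in null pools 1 to 3 and 6.984, 7.0032 and 7.001 in wild type pools 1 to 3. All null medians thus lay above the wild type ones. In the reported fit 326 genes rose and 153 fell, against 295 and 185 with median centring and 267 and 174 with quantile normalization. The authors' deposited comparison table, per the file headers, gives a fold (signed, used as a score), p-values and group medians on a log scale (natural log units, from the values), with no test named.

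Of 35556 rows, 21789 had 1 symbol in the platform annotation, 1621 several and 12146 none; the highest row per symbol gave 19938 genes. The test was limma's (version 3.58.1, R 4.3.3), by lmFit and eBayes over 6 arrays with genotype as the one term, and with Benjamini-Hochberg adjustment over all genes and no filter on level. All intervals cover 95%. Precision is limited by how few arrays there are (median SE 0.09), and an exact test of 3 against 3 cannot go below 0.1. Plots were drawn with matplotlib 3.10.9 and tables joined with pandas 2.3.3 (Python 3.11.15).

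The members, gene lists and tests were chosen with earlier results of these data known. Named genes are all annexins measured, Foxd1, partners past the threshold, up to 2 examples per marker list and the 5 genes nearest to Anxa13; other partners and markers are named after their values were seen, as said beside them. Alternatives were the replicate number as a block, other variance models, array weights, quantile normalization, median centring, a filter on low rows, the mean of rows, all rows tested and each pool left out. Leaving out pool 3 of both genotypes was added after seeing the data.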

Additional observations from a re-analysis of the deposited data

How the results depend on the processing

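The median difference of the 10 annexins, 0.16, was 0.42 with the filter on low rows, which left 7 of them. That filter dropped Anxa11 and the 2 members whose null pools lay wholly below wild type, Anxa8 and Anxa13, so the 2 medians are of different genes. The median of the 10 was 0.14 to 0.22 with 1 pool left out and 0.11 with pool 3 of both genotypes left out. The number of the other 9 annexins past the threshold, 2, was 4 with the replicate block and with a robust variance model that follows intensity, and 1 with quantile normalization, with the mean of all rows of a gene, with all rows tested and with pool 3 of both genotypes left out, an alternative chosen after seeing the data. Over the fits without 1 pool it was 1 to 2. The number of partner genes past the threshold, 3, was 0 in limma over all rows (6 at an unadjusted p under 0.05), 1 with pool 3 of both genotypes left out, and 0 to 4 over the fits without 1 pool, where the 3 fits with 0 calls, without null pool 2, null pool 3 or wild type pool 2, had 3 to 5 genes at an unadjusted p under 0.05. Calls over all genes, 479 in the reported fit, were 90 with all rows tested and 306 with pool 3 of both genotypes left out. They were 203 without null pool 2, 286 without null pool 3 and 212 without wild type pool 2. With the robust variance model they were 673, with quantile normalization 441 and with the mean of all rows 485. With the filter on low rows they were 552 of 9969 genes, where 3 of the 7 annexins left passed. The cause of these counts was not tested. Among the named annexins and partners the sign turned for 6 genes. Anxa7 was -0.0099 with quantile normalization, -0.0115 with median centring and -0.0434 with pool 3 of both genotypes left out, and -0.0442 to 0.1053 with 1 pool left out. Anxa11 was -0.0245 with quantile normalization, -0.0247 with median centring, and -0.0371 to 0.0444 with 1 pool left out. Anxa9 was -0.0130 with array weights, -0.0032 with median centring and -0.0786 with pool 3 of both genotypes left out, and -0.0666 to 0.1 with 1 pool left out. Plau was -0.0017 with array weights, -0.0125 with quantile normalization, -0.0094 with median centring and -0.0911 with pool 3 of both genotypes left out, and -0.05 to 0.068 with 1 pool left out. Plaur was -0.0317, -0.0277 and -0.0309 with the last 3 of these, and -0.0825 to 0.0823 with 1 pool left out. Plg was -0.0022 to 0.2619 with 1 pool left out and turned only without null pool 3. The other named annexins and partners kept their sign in each alternative. The pools share replicate numbers, but the labels do not say that a number marks a shared litter. Deviations from the group means correlated at 0.125, 0.068 and 0.053 for pools of the same number, and each of the 6 pools correlated best with its own number. These correlations are small. The deviations sum to 0 over the 3 pools of a genotype, so the 6 matches are not separate and give at most a hint. The replicate block gave 539 calls over all genes against 479; under it Anxa2 (adjusted p = 0.0472) and Anxa3 (0.0483) passed and S100a6 (0.0502) did not.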
